A study of Homo sapiens with 6 samples.

Results

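The genes described here encode the subunits of respiratory complexes II to V, measured as messenger RNA in SW620, an established cell line from a human colorectal cancer. Members were the rows of the count table named after succinate dehydrogenase, complex III, complex IV or ATP synthase subunits, with CYC1 and the mitochondrially encoded CYTB, COX1, COX2, COX3, ATP6 and ATP8 added. A member needed at least 10 counts in 2 or more of the 6 libraries, and read-through names were left out. Of 57 candidate rows 49 met this rule, out of 19672 genes in the table. Of these, 4 belong to complex II, 11 to complex III, 14 to complex IV and 20 to complex V, and 6 are encoded by mitochondrial DNA. All 49 passed the filter on low counts and were tested.

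All cells carried a lentiviral short hairpin RNA and were kept under puromycin at 1 µg/mL. The scramble group (shSCRM) carried a hairpin with no stated target, and the DKC1 knockdown groups, called C3 and C6, carried hairpins against DKC1, which encodes the pseudouridine synthase dyskerin. Each group had 2 libraries. Which of the 2 DKC1 hairpins C3 and C6 carry, and whether a line is a clone or a pool, the sources used here do not say. Only 1 scramble line was measured, so p-values measure the spread between libraries of a line and not between independently made lines. The genotype tag of C3 replicate 1 reads control, although its title names the C3 knockdown, and its group was taken from the title.

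Complex II oxidises succinate in the citric acid cycle and passes the electrons to ubiquinone. Complex III moves them from ubiquinol to cytochrome c, complex IV from cytochrome c to oxygen, and both add to the proton gradient across the inner mitochondrial membrane. Complex V, the ATP synthase, uses that gradient to make ATP. Complexes III, IV and V combine subunits from nuclear and mitochondrial genes, while complex II is wholly nuclear.

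Library totals ran from 26077966 to 31021000 counts, and 3 counts, the limit that a count of 0 allows, correspond to at most 0.115 CPM (counts scaled to a common library size with TMM; counting error only). Apart from UQCRHL, every member had at least 472 counts in every library. DKC1 was at 315 to 319.6 CPM in scramble, 144 to 149 in C3 and 67.1 to 70.3 in C6, so C3 replicate 1 lay with its group. The epithelial genes EPCAM, KRT8, KRT18, KRT19, VIL1 and CDH1 were expressed in all libraries, but at levels that differed by line. In C3 VIL1 was higher (0.34 ± 0.058) and the others were lower, with log2 fold changes of −1.96 ± 0.069 for CDH1 and −0.38 ± 0.067 for EPCAM. In C6 KRT19 was higher (0.76 ± 0.060), VIL1 (−1.08 ± 0.059), CDH1 (−0.30 ± 0.065) and EPCAM (−0.50 ± 0.067) were lower, and KRT8 and KRT18 did not pass. CDX2 stood at 2.06 to 4.90 CPM and was higher in C6 (0.68 ± 0.25), and PTPRC, CD3E and COL3A1 were at 0 counts. PECAM1, VWF, COL1A1 and PDGFRB stood at 0.359 to 5.36 CPM, with COL1A1 (−0.97 ± 0.28), PDGFRB (−0.73 ± 0.26) and PECAM1 (−1.47 ± 0.54) lower in C6 and VWF (−0.85 ± 0.21) in C3. The part of these markers in the results was not tested. In RNA from a bulk culture, fewer cells that express a gene and less RNA per cell cannot be told apart.

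The 2 libraries of a line stood apart in these genes in a shared direction, which touches every count below. Leaving out UQCRHL, 41 of 42 nuclear members were lower in scramble replicate 2 than in replicate 1, with a median of 91.0% of its level. In C3, 34 of 42 were higher in replicate 2 (median 106%), and in C6, 38 of 42 were lower in replicate 2 (median 94.2%). Over the 9354 tested genes with at least 10 CPM the medians were 99.6%, 100.2% and 99.8%. The mitochondrially encoded members did not share this shift in scramble, where replicate 2 was lower in 4 of 6 with a median of 99.2%.

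Most subunit messages stood above scramble after knockdown, by modest amounts. A gene is called higher or lower here where edgeR's quasi-likelihood test gave a Benjamini-Hochberg adjusted p under 0.05 over all genes tested, and log2 fold changes carry the standard error of that fit. In the mean of both lines 29 of 49 members were higher and 2 were lower, with a median log2 fold change of 0.21 against −0.0045 over all genes. Among all 13299 genes tested 16.6% were higher and 16.3% lower in that comparison, 32.9% in either direction. All 4 knockdown libraries lay above both scramble libraries for 25 members, against 15.0% of all genes, and below both for none, against 15.2%. Without scramble replicate 2 the count of higher members dropped from 29 to 13 and the median to 0.13, and without scramble replicate 1 it was 29 with a median of 0.28. Fewer of all genes were called in these fits too, 18.0% and 21.6% in either direction against 32.9%. With the 4 knockdown libraries pooled as 1 group, so that the spread between C3 and C6 entered the error, 0 members passed by edgeR, 20 were higher at an unadjusted p under 0.05, and only 0.602% of all genes passed.

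Each line was then set against scramble on its own. In C3, 30 members were higher (12.4% of all genes were) and 0 were lower (11.9% of all genes, 24.3% in either direction), with a median of 0.26. No member was lower in C3 even at an unadjusted p under 0.05 in edgeR or DESeq2, and 37 and 36 were higher at that level. In C6, 27 members were higher (23.8% of all genes) and 8 were lower (22.8%, 46.7% in either direction), with a median of 0.19. The share of members lower in C6, 8 of 49, was thus below the background, and the share higher was above it in both lines. C3 and C6 share the scramble libraries, so each line's values are given side by side. Without C3 replicate 1 the C3 count was 25, and without C3 replicate 2 or scramble replicate 2 it was 17. In C6 the count of higher members was 16 without scramble replicate 2 and 16 without C6 replicate 1. The shares of all genes called in these fits are given below.

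Part of the calls held in every other setting tried, apart from the fit that pools the lines: 12 of the 31 calls of the mean comparison, 16 of 30 in C3 and 14 of 35 in C6. In the mean comparison these were UQCRQ of complex III, COX2, COX3 and COX8A of complex IV, and ATP6, ATP8, ATP5F1E, ATP5MF, ATP5MC1, ATP5PD, ATP5F1B and ATP5IF1 of complex V, all higher. UQCRQ, COX8A, ATP5MC1, ATP6 and ATP8 held in this way in each line as well. How many calls among all genes held in every setting was not counted.

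Other calls were lost in fits with 1 library fewer, in which fewer of all genes were called as well. In C3, 13 of the 30 calls were lost without scramble replicate 2 and 13 without C3 replicate 2, while the share of all genes called in C3 fell from 24.3% to 14.3% in each of these fits and the median of the members was 0.21 in both. SDHA, UQCRH, COX4I1, COX5B, COX6A1, COX6C, COX7A2, ATP5F1C, ATP5F1D, ATP5PB, ATP5PD and ATP5PF were lost in either case, ATP5MC3 in the first and COX3 in the second. In C6, 12 of the 35 calls were lost without scramble replicate 2 and 12 without C6 replicate 1, and these were SDHD, COX1, COX5A, COX6A1, COX7A2L, COX7B, ATP5F1B, ATP5IF1, ATP5PF, ATP5PO, ATP5MG and ATP5MPL in either case. Of all genes, 33.8% and 36.7% were called in C6 in these fits against 46.7%, and the medians of the members were 0.16 and 0.15. Among the members lower in C6, UQCRB was lost without C6 replicate 2, and ATP5MC3 and ATP5F1D without either scramble replicate 1 or C6 replicate 2.

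**Figure D1:**
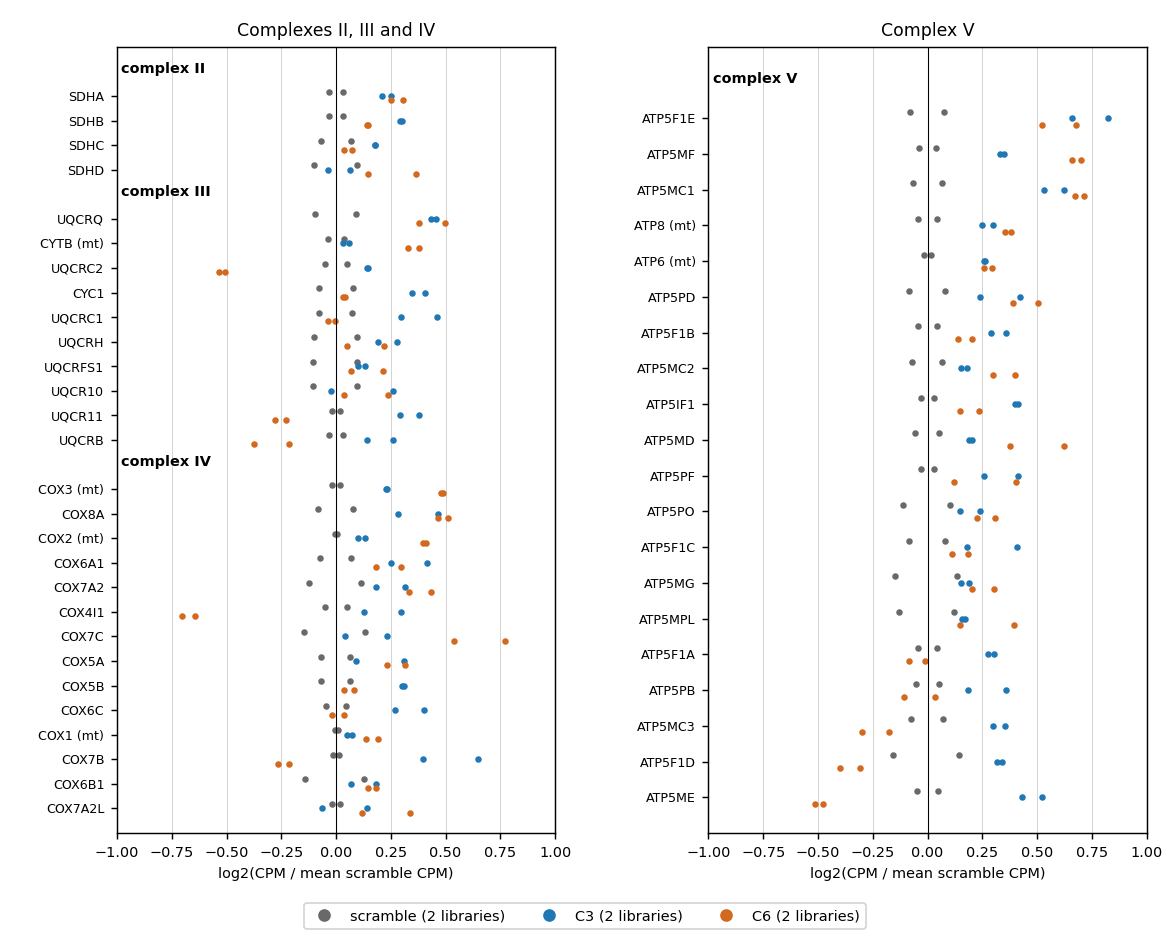
Each point is 1 library's CPM divided by the mean scramble CPM of that gene, on a log2 axis, for 48 members by complex (UQCRHL, at about 1 CPM, is left out); grey is scramble, blue C3 and orange C6. Most blue points lie right of 0, and orange points lie left of the grey ones for the 8 members that were lower in C6.

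Complex II rose in 2 of its 4 genes in the mean comparison. SDHA, the flavoprotein that oxidises succinate (chromosome 5, 218320 to 268746), stood at 94.0 and 90.1 CPM in the scramble libraries, 107 and 109.7 for C3 and 109.7 and 114 for C6. Both lines lay above scramble without overlap, with log2 fold changes of 0.23 ± 0.064 (SE) in C3 and 0.28 ± 0.064 in C6 (adjusted p = 0.015 and 0.0022). SDHB, the iron-sulfur subunit that carries the electrons onward, was at 75.6 and 72.3 CPM in the scramble libraries, 91.1 and 90.4 for C3 and 81.8 and 81.7 for C6. It rose in C3 (0.30 ± 0.065, adjusted p = 0.0036), and the difference in C6 missed the threshold (0.14 ± 0.066, adjusted p = 0.085).

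The membrane anchors of complex II, which hold its ubiquinone site, were less clear. SDHC stood at 70.4 and 64.0 CPM in the scramble libraries, 76.0 and 76.1 for C3 and 70.8 and 68.9 for C6, and neither line passed the test. SDHD was at 112 and 98.0 CPM in the scramble libraries, 102 and 109.8 for C3 and 135 and 116 for C6, higher in C6 only by the test (0.26 ± 0.084, adjusted p = 0.021; in C3 0.014 ± 0.084), and the lines differed by 0.24 ± 0.084. The summed level of the 4 genes was 324 to 352 CPM in scramble, 376 to 386 in C3 and 381 to 397 in C6, so the groups of knockdown libraries lay above scramble. In C6 the genes around SDHA near the end of chromosome 5 were themselves higher, as described below with the other neighbours.

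Complex III was divided. In the mean comparison 5 of its 11 genes were higher and 1 was lower; in C3 5 were higher and 0 lower, and in C6 2 were higher and 3 lower. UQCRQ, a small subunit of the membrane part (chromosome 5, 132866642 to 132868847), showed the largest rise of the complex. It stood at 59.1 and 51.9 CPM in the scramble libraries, 76.1 and 74.8 for C3 and 78.3 and 72.1 for C6. Its log2 fold change was 0.44 ± 0.078 in C3 and 0.44 ± 0.079 in C6 (adjusted p = 0.00069 and 0.00033), and the lines overlapped each other. It was called in both lines in every alternative tried for them.

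The subunits of complex III that carry electrons did not move as a block. CYTB, the mitochondrially encoded cytochrome b, stood at 2795 and 2943 CPM in the scramble libraries, 2992 and 2929 for C3 and 3604 and 3735 for C6 and rose in C6 (0.36 ± 0.057, adjusted p = 0.00012), while C3 overlapped scramble. CYC1, cytochrome c1, was at 66.0 and 59.3 CPM in the scramble libraries, 83.0 and 79.7 for C3 and 64.4 and 64.1 for C6, higher in C3 (0.38 ± 0.073, adjusted p = 0.0014) and overlapping scramble in C6. The Rieske iron-sulfur protein UQCRFS1 was at 91.1 and 79.2 CPM in the scramble libraries, 91.2 and 93.4 for C3 and 98.8 and 89.3 for C6, with 0.12 ± 0.078 in C3 and 0.14 ± 0.078 in C6, neither of which passed.

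The paired core proteins of complex III parted in C6. UQCRC1 stood at 179 and 161 CPM in the scramble libraries, 209 and 234 for C3 and 169 and 166 for C6, which is a rise in C3 (0.38 ± 0.069, adjusted p = 0.00087) and overlap with scramble in C6. UQCRC2 (chromosome 16, 21953361 to 21983660) was at 109 and 102 CPM in the scramble libraries, 117 and 116 for C3 and 72.7 and 74.1 for C6. It fell in C6 by 30.3% (log2 −0.52 ± 0.066, adjusted p = 1.3e-05), with both C6 libraries below all others, and its C3 value of 0.14 ± 0.065 did not pass. In the mean comparison UQCRC2 was 1 of the 2 members called lower (−0.19 ± 0.056, adjusted p = 0.018), and without scramble replicate 1 or C3 replicate 2 it missed the threshold there.

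Among the other small subunits of complex III, UQCR11 and UQCRB were low in C6. UQCR11 stood at 80.2 and 78.1 CPM in the scramble libraries, 97.1 and 103 for C3 and 65.2 and 67.6 for C6, above scramble in C3 (0.34 ± 0.067, adjusted p = 0.0016) and below it in C6 (−0.25 ± 0.068, adjusted p = 0.0065), with no overlap between the 3 groups. UQCRB, which takes part in ubiquinone binding, was at 97.6 and 93.6 CPM in the scramble libraries, 106 and 115 for C3 and 82.4 and 73.7 for C6, lower in C6 (−0.29 ± 0.074, adjusted p = 0.0043) and short of the threshold in C3 (adjusted p = 0.054). The hinge protein gene UQCRH, whose product helps cytochrome c1 meet cytochrome c, was at 121 and 106 CPM in the scramble libraries, 129 and 138 for C3 and 132 and 118 for C6 and rose in C3 by 0.24 ± 0.078 (adjusted p = 0.04). UQCR10 overlapped scramble in both lines. UQCRHL, a copy of the UQCRH gene, was at 0.391 to 1.10 CPM in all libraries, too low to show a difference of the size seen in the others.

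Complex IV was higher in 8 of 14 genes and lower in 1 in the mean comparison; 8 were higher and 0 lower in C3, and 9 higher and 2 lower in C6. Its catalytic core, which holds the haem and copper centres, comes from mitochondrial DNA. COX1, the subunit that reduces oxygen, was at 16639 and 16486 CPM in the scramble libraries, 17403 and 17140.4 for C3 and 18211 and 18891 for C6, with 0.061 ± 0.056 in C3, which did not pass, and 0.16 ± 0.056 in C6 (adjusted p = 0.027). COX2, which takes electrons from cytochrome c, stood at 6274 and 6234 CPM in the scramble libraries, 6699 and 6861 for C3 and 8238 and 8302 for C6, and COX3 at 7265 and 7094 CPM in the scramble libraries, 8397 and 8441 for C3 and 10078 and 9998 for C6. In both genes every C6 library lay above every C3 library and every C3 library above scramble.

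The rise of COX3 was 0.23 ± 0.055 in C3 and 0.48 ± 0.056 in C6 (adjusted p = 0.0066 and 4.8e-06). COX2 rose in C6 by 0.40 ± 0.055 (adjusted p = 2.8e-05) and its C3 value of 0.12 ± 0.055 did not pass (adjusted p = 0.14). ATP6 and ATP8, the mitochondrially encoded subunits of the membrane part of complex V, share a transcript and overlap, so reads in the overlap cannot be given to either. ATP6 was at 4500.2 and 4415 CPM in the scramble libraries, 5324 and 5353 for C3 and 5322 and 5468 for C6, and ATP8 at 899 and 953 CPM in the scramble libraries, 1141 and 1101 for C3 and 1182 and 1207 for C6. Here the values of C3 and C6 were close: 0.26 ± 0.055 and 0.28 ± 0.055 for ATP6, 0.28 ± 0.058 and 0.37 ± 0.058 for ATP8, all 4 called, with differences between the lines of 0.015 ± 0.055 and 0.091 ± 0.058.

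Of the 6 mitochondrially encoded members, 5 were higher in the mean comparison, 3 in C3 and all 6 in C6, and 0 were lower. Their summed level was 38124 and 38372 CPM in the scramble libraries, 41826 and 41955 for C3 and 46636 and 47601 for C6, which is 109.5% and 123% of scramble on average. The groups did not overlap. The share of all counts that fell on mitochondrial genes, measured over the whole mitochondrial set, was 5.92% and 6.02% in the scramble libraries, 6.39% and 6.49% for C3 and 6.63% and 6.87% for C6. The libraries were made from polyadenylated RNA, so these values are of the polyadenylated messages.

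**Figure D2:**
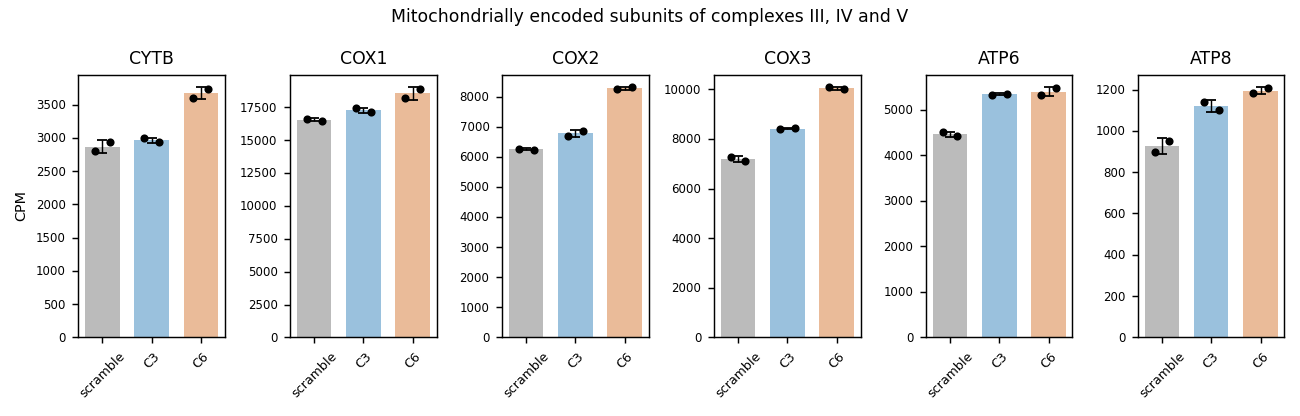
CPM of the 6 mitochondrially encoded members; bars are means of 2 libraries, points the libraries and error bars the SD. COX2, COX3 and CYTB were highest in C6, while ATP6 and ATP8 stood at about the same level in C3 and C6.

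The nuclear subunits of complex IV surround that core and steady it. COX8A, one of its small membrane subunits (chromosome 11, 63974620 to 63976543), stood at 111 and 98.8 CPM in the scramble libraries, 127 and 145 for C3 and 149 and 145 for C6, and all 4 knockdown libraries lay above scramble. It rose by 0.38 ± 0.075 in C3 and 0.49 ± 0.075 in C6 (adjusted p = 0.0018 and 8.4e-05). COX6A1 was at 150.3 and 136 CPM in the scramble libraries, 171 and 191 for C3 and 176 and 163 for C6, COX7A2 at 61.6 and 52.3 CPM in the scramble libraries, 64.6 and 70.7 for C3 and 77.0 and 71.7 for C6 and COX5A at 109 and 99.5 CPM in the scramble libraries, 111 and 129 for C3 and 129.6 and 123 for C6, each with both lines above scramble. COX6A1 and COX7A2 were called in both lines, COX5A in C6 alone (in C3 0.20 ± 0.078, adjusted p = 0.072).

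COX4I1 went the other way in C6. Its product, the main isoform of subunit 4, is the largest nuclear subunit and a site where ATP slows the enzyme (chromosome 16, 85799695 to 85807068). It stood at 168 and 157 CPM in the scramble libraries, 178 and 199.6 for C3 and 104 and 99.9 for C6, above scramble in C3 (0.21 ± 0.069, adjusted p = 0.033) and 37.3% below it in C6 (−0.67 ± 0.070, adjusted p = 1.6e-06), and it was the other member lower in the mean comparison (−0.23 ± 0.059). The C3 call was lost without either scramble library, without C3 replicate 2, with upper-quartile scaling, with the replicate block and with neighbour shifts removed (0.15, adjusted p = 0.13; the last is described below). COX7B (chromosome X, 77899468 to 77907376) was at 112 and 109.8 CPM in the scramble libraries, 146 and 174 for C3 and 95.5 and 92.2 for C6, higher in C3 (0.53 ± 0.077, adjusted p = 0.00014) and lower in C6 (−0.24 ± 0.078, adjusted p = 0.019). The C6 call of COX7B was lost without any 1 of the scramble or C6 libraries.

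COX7C was higher in C6, at 103 and 84.8 CPM in the scramble libraries, 96.4 and 110.1 for C3 and 160.0 and 136 for C6. Its C6 change was 0.66 ± 0.11 (adjusted p = 0.0008), and C3 overlapped scramble. COX5B, a zinc-binding subunit, and COX6C were higher in C3 and near scramble in C6: COX5B stood at 46.1 and 42.1 CPM in the scramble libraries, 54.6 and 54.4 for C3 and 45.3 and 46.7 for C6 and COX6C at 52.9 and 49.7 CPM in the scramble libraries, 61.8 and 67.8 for C3 and 52.7 and 50.7 for C6. COX7A2L, which helps join complexes III and IV into supercomplexes, was at 103 and 105 CPM in the scramble libraries, 99.6 and 115 for C3 and 131 and 113 for C6 and rose in C6 by 0.23 ± 0.082 (adjusted p = 0.032). COX6B1, on the side facing cytochrome c, was at 74.7 and 62.1 CPM in the scramble libraries, 71.8 and 77.7 for C3 and 77.6 and 75.7 for C6 and passed in neither line.

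Alternative isoforms of complex IV subunits were not detected in these cells. COX4I2, COX6A2, COX6B2, COX7A1, COX7B2 and COX8C had 0 counts in all 6 libraries, the muscle and heart forms COX6A2 and COX7A1 and the lung form COX4I2 among them. No switch from COX4I1 to COX4I2 was therefore detectable in C6, where COX4I1 fell.

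Complex V was higher in 14 of 20 genes and lower in 0 in the mean comparison, higher in 15 and lower in 0 in C3, and higher in 14 and lower in 3 in C6. The catalytic head of the enzyme, where ATP is made, is built of alpha and beta subunits around a central stalk. ATP5F1B, the catalytic beta subunit, stood at 1009 and 952 CPM in the scramble libraries, 1197 and 1256 for C3 and 1127 and 1078 for C6, above scramble in both lines (0.32 ± 0.059 and 0.17 ± 0.059, adjusted p = 0.0009 and 0.028). ATP5F1A, the alpha subunit, was at 217 and 204 CPM in the scramble libraries, 255 and 260.3 for C3 and 209 and 199 for C6, with a rise in C3 (0.29 ± 0.059, adjusted p = 0.002) and overlap in C6. All 5 genes of the head and central stalk were higher in C3, and 2 were higher and 1 lower in C6.

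The small stalk subunits delta and epsilon parted most. ATP5F1E, the epsilon subunit (chromosome 20, 59025475 to 59032335), had the largest mean rise of all members and stood at 116 and 104 CPM in the scramble libraries, 174 and 195 for C3 and 177 and 158 for C6. It rose by 0.74 ± 0.077 in C3 and 0.60 ± 0.078 in C6 (adjusted p = 7.4e-06 and 2e-05), and its neighbouring genes on chromosome 20 were higher as well. ATP5F1D, the delta subunit (chromosome 19, 1241751 to 1244825), was at 64.3 and 52.1 CPM in the scramble libraries, 72.5 and 73.6 for C3 and 47.0 and 44.1 for C6. It rose in C3 (0.33 ± 0.090, adjusted p = 0.015) and fell in C6 (−0.35 ± 0.092, adjusted p = 0.0056). The gamma subunit ATP5F1C, the rotor shaft, was at 131 and 117 CPM in the scramble libraries, 141 and 164 for C3 and 141 and 134 for C6 and was called in C3 (0.30 ± 0.080, adjusted p = 0.013).

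The c ring, which turns as protons pass, has the same mature protein from 3 nuclear genes, and these did not move alike. ATP5MC1 (chromosome 17, 48892787 to 48895871) stood at 24.7 and 22.5 CPM in the scramble libraries, 34.1 and 36.3 for C3 and 38.7 and 37.6 for C6, a rise of 0.58 ± 0.089 in C3 and 0.69 ± 0.089 in C6 (adjusted p = 0.00021 and 1.4e-05). ATP5MC2 was at 271 and 247 CPM in the scramble libraries, 288 and 293 for C3 and 341 and 319 for C6, called in C6 (0.35 ± 0.063, adjusted p = 0.00033) and not in C3 (0.17 ± 0.063). ATP5MC3 (chromosome 2, 175176258 to 175181710) was at 135 and 122 CPM in the scramble libraries, 158 and 165 for C3 and 114 and 104 for C6, higher in C3 (0.33 ± 0.069, adjusted p = 0.0027) and lower in C6 (−0.24 ± 0.070, adjusted p = 0.012). ATP5MC1 was called higher in both lines under every alternative tried for them.

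The small membrane subunits that shape the enzyme's dimers were mostly higher in C6. ATP5MF, subunit f (chromosome 7, 99458195 to 99466167), was at 55.3 and 52.4 CPM in the scramble libraries, 67.7 and 68.6 for C3 and 87.7 and 85.2 for C6, with C6 above C3 and C3 above scramble (0.34 ± 0.069 and 0.68 ± 0.069, adjusted p = 0.0021 and 1.3e-06); its C6 neighbours were higher too, as described below. ATP5MD, also known as DAPIT, was at 43.2 and 40.0 CPM in the scramble libraries, 47.3 and 47.8 for C3 and 64.0 and 54.0 for C6 and rose in C6 by 0.50 ± 0.088 (adjusted p = 0.00026). ATP5MG, subunit g, stood at 166 and 136 CPM in the scramble libraries, 168 and 172 for C3 and 186 and 174 for C6 and ATP5MPL, a small proteolipid, at 49.4 and 41.5 CPM in the scramble libraries, 51.1 and 50.8 for C3 and 59.8 and 50.4 for C6, both called in C6 and not in C3. ATP5ME, subunit e (chromosome 4, 672436 to 674276), was the exception in C6, at 25.8 and 24.1 CPM in the scramble libraries, 35.8 and 33.6 for C3 and 17.9 and 17.5 for C6. It rose by 39.2% in C3 (0.48 ± 0.091, adjusted p = 0.0012) and fell in C6 (−0.49 ± 0.095, adjusted p = 0.00058), with no overlap between the 3 groups.

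The peripheral stalk, which keeps the head from turning, was higher in 3 of 4 genes in each line and lower in 0. ATP5PD, subunit d, stood at 56.9 and 50.9 CPM in the scramble libraries, 63.6 and 72.3 for C3 and 76.4 and 70.6 for C6, called in both lines (0.33 ± 0.084 and 0.45 ± 0.084, adjusted p = 0.0089 and 0.0005). ATP5PF, coupling factor F6, was at 46.1 and 44.2 CPM in the scramble libraries, 53.9 and 60.0 for C3 and 59.7 and 49.0 for C6 and was likewise called in both. ATP5PO, the OSCP subunit, was at 92.0 and 79.3 CPM in the scramble libraries, 95.0 and 101 for C3 and 106 and 100.1 for C6, called in C6, and ATP5PB, subunit b, at 143 and 133 CPM in the scramble libraries, 156 and 176 for C3 and 141 and 128 for C6, called in C3. ATP5IF1, the inhibitor that stops the enzyme from running backwards and burning ATP, was at 45.4 and 43.7 CPM in the scramble libraries, 59.4 and 58.7 for C3 and 52.4 and 49.3 for C6. It rose in C3 (0.41 ± 0.074, adjusted p = 0.00087) and, near the threshold, in C6 (0.19 ± 0.075, adjusted p = 0.047).

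C6 and C3 were then compared directly, whose differences do not use the scramble values. Of 49 members 24 differed, 8 higher and 16 lower in C6, while 49.2% of all genes differed (25.1% higher and 24.1% lower). The members as a whole thus differed about as often as other genes. The lower calls were all nuclear, 16 of 43, with 5 nuclear members higher. All 3 calls among the mitochondrially encoded members, in CYTB, COX2 and COX3, were higher. Without C6 replicate 1 the count of higher members was 5.

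Before the shifts of neighbouring genes described below were taken into account, the largest differences were in ATP5ME, COX4I1 and COX7B. C6 lay below C3 by −0.97 ± 0.093 in ATP5ME (adjusted p = 5.9e-07), by −0.89 ± 0.070 in COX4I1 (adjusted p = 7.1e-08) and by −0.77 ± 0.077 in COX7B (adjusted p = 1.1e-06). ATP5F1D followed with −0.68 ± 0.091, UQCRC2 with −0.66 ± 0.065, UQCR11 with −0.59 ± 0.067 and ATP5MC3 with −0.56 ± 0.069. In the other direction COX7C led with 0.52 ± 0.11 (adjusted p = 0.0029), followed by ATP5MF with 0.34 ± 0.068. UQCR11, COX4I1, COX7B, ATP5MC3, ATP5F1D and ATP5ME were called higher in C3 and lower in C6, as were 2.31% of all genes, and all of these 6 differed between the lines. In the 3 complexes that hold them, messages for subunits of the same complex therefore stood on opposite sides of scramble in C6, such as UQCRQ and UQCR11. None of these 6 was still called lower in C6 once the neighbour shifts were removed.

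**Figure D3:**
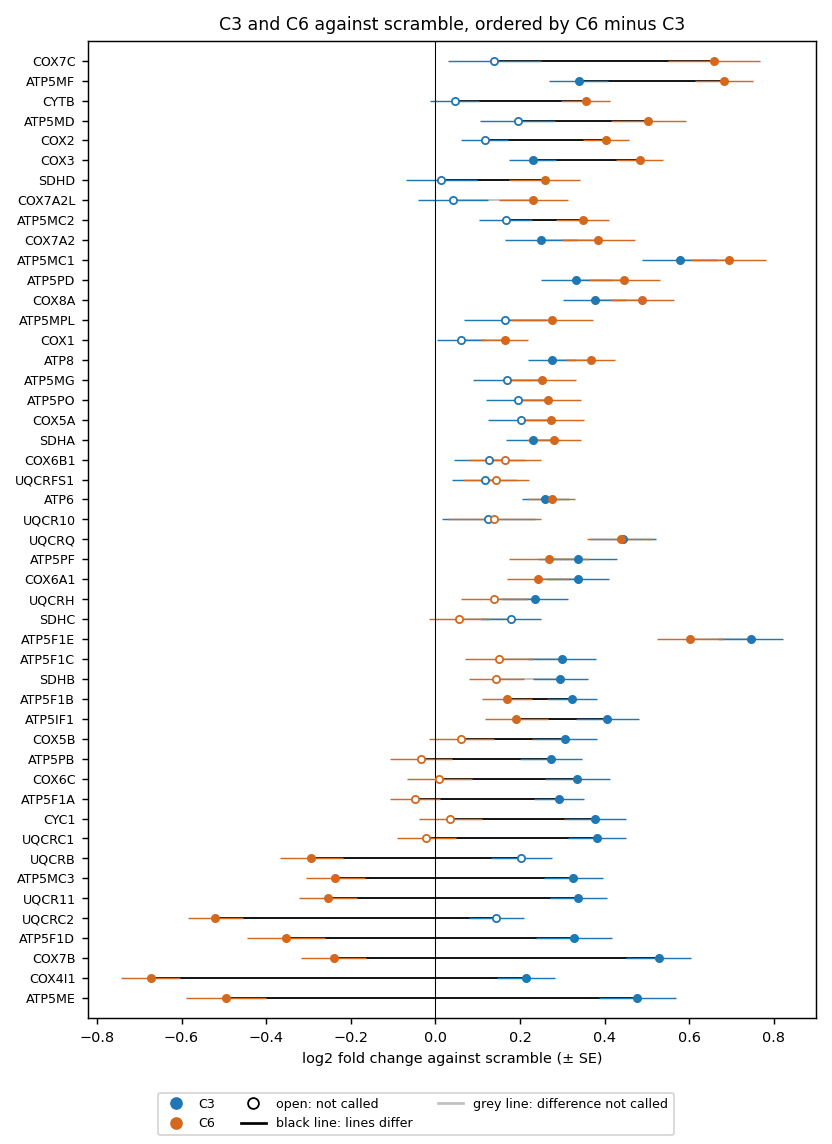
Log2 fold changes against scramble with SE for C3 (blue) and C6 (orange) in 48 members (UQCRHL is left out), ordered by C6 minus C3; filled points passed the test and black lines join members whose lines differed. COX7C is at the top, with C6 above C3, and ATP5ME, where C6 lay −0.97 from C3, is at the bottom.

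Genes near some members moved with them in C6. For each of the 43 nuclear members the median log2 fold change of the 50 nearest tested genes on its chromosome was computed, the member itself left out. In C3 these medians lay between −0.12 and 0.44 and in C6 between −0.76 and 0.50. In C6 the neighbours of ATP5ME had a median of −0.76, those of COX4I1 −0.70, of ATP5MC3 −0.49 and of UQCR11 −0.30, against −0.054, 0.050, 0.10 and 0.034 in C3. These 4 were among the 8 members lower in C6. The other 4 had neighbours nearer to 0, with −0.15 for UQCRC2, −0.043 for UQCRB, −0.15 for COX7B and −0.12 for ATP5F1D. ATP5F1D and UQCR11 lie close together on chromosome 19, starting at 1241751 and 1597169. Their medians of −0.12 and −0.30 therefore depend on where the window of neighbours lies.

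Neighbours also moved with some members that were higher. Those of ATP5F1E had a median of 0.44 in C3 and 0.50 in C6, those of ATP5MF 0.49, of SDHA 0.38 and of COX7C 0.28 in C6. COX7A2 was an exception, higher in C6 while its neighbours had a median of −0.20. ATP5MC1, COX8A and UQCRQ rose in both lines with neighbour medians of 0.052, 0.066 and 0.097 in C3 and 0.042, 0.046 and 0.068 in C6.

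When the shift of the neighbouring genes was removed in the fit, the counts of higher members changed little, though in C6 they covered partly different members. Most of the falls in C6 were no longer called. The mean comparison then gave 30 higher and 0 lower members (28.2% of all genes in either direction), C3 29 and 0, and C6 25 and 2, with 40.8% of all genes called in C6. UQCRC2 (−0.37) and UQCRB (−0.25) were the 2 that were still lower. COX4I1 came to 0.025 and UQCR11 to 0.039 in C6, neither called, while ATP5ME (0.27, adjusted p = 0.037) and ATP5MC3 (0.25, adjusted p = 0.0099) were then called higher. SDHA came to −0.10, ATP5F1E to 0.10 and ATP5MF to 0.17 (adjusted p = 0.059) in C6, none of them called. The higher calls of COX6A1, ATP5PF, ATP5PO and ATP5MPL in C6 were lost as well, while UQCRFS1, COX6B1 and ATP5F1C were then called higher.

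The order of the differences between C6 and C3 changed as well. With neighbour shifts removed COX7B (−0.58), UQCRC2 (−0.54) and ATP5F1D (−0.48) differed most, and ATP5ME came to −0.26 (adjusted p = 0.03). COX4I1 came to −0.13 (adjusted p = 0.15), COX7C to 0.19 (adjusted p = 0.18), ATP5MF to −0.13 (adjusted p = 0.14) and ATP5MC3 to 0.026, and the calls of these 4 were lost, as were those of SDHD, ATP5MD, ATP5F1B and ATP5IF1. Before that removal, 41 of 43 nuclear members lay above the median of their own neighbours in C3 and 35 of 43 in C6. The same share over all genes tested was not computed.

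**Figure D4:**
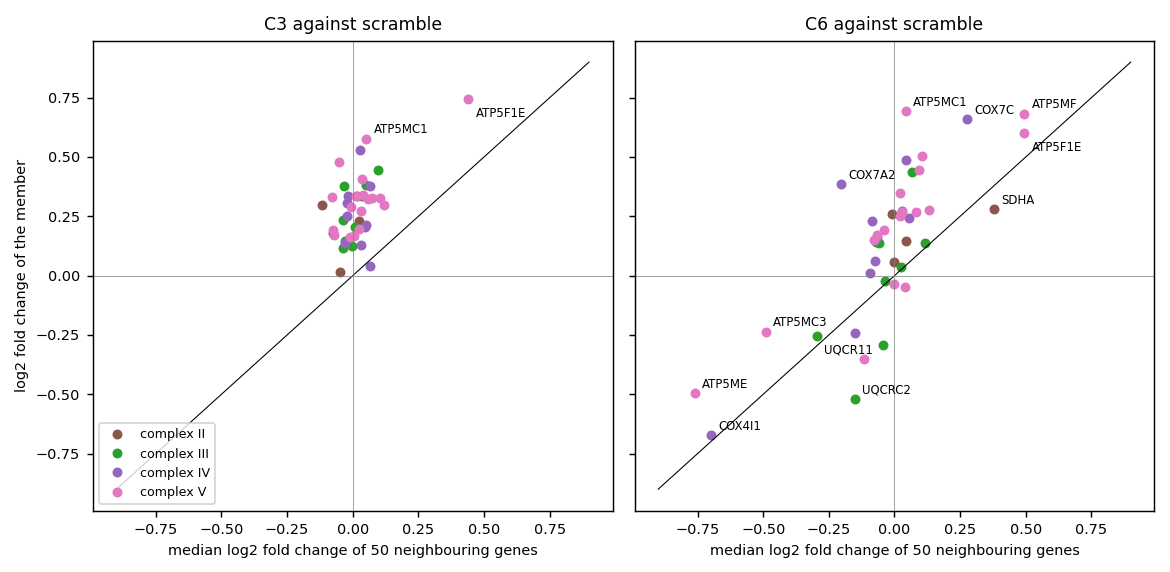
Log2 fold change of each nuclear member (vertical) against the median of its 50 neighbouring genes (horizontal) in C3 and C6, 42 members coloured by complex (UQCRHL is left out); the diagonal marks equal values. In C6 the points of ATP5ME, COX4I1, ATP5MC3 and UQCR11 lie at neighbour medians below −0.2, and most points of both panels lie above the diagonal.

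The promoters of these genes are known for binding sites of NRF1, of the ETS factor GABPA, of YY1 and of oestrogen-related receptors. RefSeq promoters (GRCh38.p14, 250 bases before to 50 after the start) were matched for 34 of the 43 nuclear members and searched on both strands for 4 short cores: GCGCATG for NRF1, CCGGAAG for GABPA, AAGATGG for YY1 and AAGGTCA for the oestrogen-related receptors. Shown are promoters from 250 bases before to 20 after the start, for genes that rose in both lines (COX8A, UQCRQ, ATP5MC1) and for the pair with the largest difference between the lines (COX4I1, ATP5ME). Capitals mark matches to these cores on either strand, and none of the matches shown overlap.
UQCRQ, chr5:132866392-132866661, plus strand: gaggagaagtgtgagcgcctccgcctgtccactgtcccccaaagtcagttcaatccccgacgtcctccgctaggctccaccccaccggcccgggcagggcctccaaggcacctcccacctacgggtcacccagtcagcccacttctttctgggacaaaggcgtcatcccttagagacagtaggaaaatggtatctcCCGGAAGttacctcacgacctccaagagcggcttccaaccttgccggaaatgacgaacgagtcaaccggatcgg
COX8A, chr11:63974370-63974639, plus strand: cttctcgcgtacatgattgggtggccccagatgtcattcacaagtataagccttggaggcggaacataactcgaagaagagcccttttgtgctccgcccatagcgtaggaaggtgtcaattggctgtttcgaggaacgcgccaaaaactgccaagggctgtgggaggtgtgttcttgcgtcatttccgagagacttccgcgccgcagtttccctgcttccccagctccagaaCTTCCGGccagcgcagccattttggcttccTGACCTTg
ATP5MC1, chr17:48892537-48892806, plus strand: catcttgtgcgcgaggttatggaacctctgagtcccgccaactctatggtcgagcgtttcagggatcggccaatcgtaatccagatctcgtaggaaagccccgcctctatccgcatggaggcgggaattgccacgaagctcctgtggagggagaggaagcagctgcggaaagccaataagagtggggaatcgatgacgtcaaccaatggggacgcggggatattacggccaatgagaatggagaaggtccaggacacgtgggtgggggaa
COX4I1, chr16:85799445-85799714, plus strand: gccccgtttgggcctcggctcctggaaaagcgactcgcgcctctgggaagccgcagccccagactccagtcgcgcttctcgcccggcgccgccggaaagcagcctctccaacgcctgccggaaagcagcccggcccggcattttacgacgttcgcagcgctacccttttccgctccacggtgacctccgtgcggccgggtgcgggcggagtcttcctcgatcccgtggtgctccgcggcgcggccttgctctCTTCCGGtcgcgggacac
ATP5ME, chr4:674257-674526, minus strand: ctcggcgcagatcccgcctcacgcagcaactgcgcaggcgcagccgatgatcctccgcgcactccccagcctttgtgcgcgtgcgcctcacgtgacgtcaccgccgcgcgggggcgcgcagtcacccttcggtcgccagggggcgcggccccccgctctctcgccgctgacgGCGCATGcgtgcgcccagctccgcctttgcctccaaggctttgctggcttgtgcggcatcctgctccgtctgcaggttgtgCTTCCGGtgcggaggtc

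UQCRQ, COX8A, COX4I1 and ATP5ME each held 1 GABPA match in the bases shown. COX8A also held 1 match for oestrogen-related receptors and ATP5ME 1 for NRF1, while ATP5MC1 held no match to these letters. Matches thus stood both in promoters of genes that rose in both lines and of genes that fell in C6. Over the full windows the GABPA core was found in 15 of 34 member promoters (44.1%), against 10.7% of all 27305 RefSeq promoters and 18.8% of the 10806 promoters of tested genes. For NRF1 the count was 8 of 34 (23.5%, against 4.67% and 7.41%), for YY1 9 (26.5%, against 6.06% and 7.33%) and for oestrogen-related receptors 5 (14.7%, against 3.97% and 2.60%). At least 1 of the 4 cores was in 23 of 34 members (67.6%, against 22.7% and 31.4%). It was in 15 of the 21 that were higher in the mean comparison, a share close to that of all members. A match describes letters in this window and not a bound site.

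The factors themselves and the partners of these complexes were looked at next. Of 8 nuclear regulators 1 was higher and 2 were lower in the mean comparison, where 16.6% of all genes were higher and 16.3% lower. GABPB1, the partner of GABPA, was higher (0.26 ± 0.073, adjusted p = 0.014), and GABPA was lower (−0.20 ± 0.068, adjusted p = 0.034). PPARGC1A, a coactivator of mitochondrial genes, was low in all libraries, at 3.71 and 5.96 CPM in the scramble libraries, 3.16 and 1.60 for C3 and 1.33 and 0.647 for C6, and fell by −2.29 ± 0.41 in C6 (adjusted p = 0.00069). NRF1 (0.090 ± 0.094), ESRRA (0.075 ± 0.061), YY1 (0.052 ± 0.052), PPARGC1B (−0.39 ± 0.16) and PPRC1 (−0.031 ± 0.067) did not pass there. By line, YY1 was higher in C3 (0.20 ± 0.059, adjusted p = 0.023) and ESRRA in C6 (0.24 ± 0.070, adjusted p = 0.01), and PPARGC1B was lower in C6 (−1.22 ± 0.20, adjusted p = 0.00014).

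Among 13 genes for copying and expressing mitochondrial DNA, 1 was higher and 0 were lower in the mean comparison, 3 and 0 in C3 and 1 and 0 in C6. Of all genes 16.6%, 12.4% and 23.8% were higher and 16.3%, 11.9% and 22.8% lower, in the same order. SSBP1, which binds single-stranded mitochondrial DNA, stood at 89.4 and 83.0 CPM in the scramble libraries, 132 and 142 for C3 and 158 and 141 for C6 and rose (mean 0.73 ± 0.065, adjusted p = 7.1e-07). The mitochondrial RNA polymerase POLRMT (−0.11 ± 0.060), the transcription factor TFB2M (0.13 ± 0.078) and TFB1M (−0.16 ± 0.085), which methylates mitochondrial ribosomal RNA, did not pass. TFAM, which packages and transcribes mitochondrial DNA (0.19 ± 0.063, adjusted p = 0.037), and SLIRP, which stabilises mitochondrial messages (0.35 ± 0.093, adjusted p = 0.011), were the others higher in C3. Cytochrome c, the carrier between complexes III and IV, was at 197 and 185 CPM in the scramble libraries, 195 and 203 for C3 and 311 and 276 for C6 and rose in C6 (0.62 ± 0.067, adjusted p = 2.5e-06). HCCS, which attaches its haem, was at 53.7 and 51.7 CPM in the scramble libraries, 61.7 and 65.3 for C3 and 74.4 and 74.4 for C6 and rose in both lines. For genes that are not members, neighbour shifts were not examined. SSBP1 and CYCS lie on chromosome 7, as does ATP5MF, whose neighbours had a median of 0.49 in C6.

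Assembly factors, which build the complexes but are not part of them, were mostly not called in the mean comparison and in C3. Of all genes 32.9% and 24.3% were called in these 2 comparisons. In the mean comparison complex II factors were lower in 2 of 4 (SDHAF1 −0.30 ± 0.10 and SDHAF4 −0.64 ± 0.17) and complex III factors higher in 2 of 9 (UQCC1 0.18 ± 0.055 and UQCC3 0.34 ± 0.090). Complex IV factors were higher in 5 of 27, with FASTKD5 (0.32 ± 0.068) and COX19 (0.32 ± 0.071) the leading ones, and lower in 1, COA5 (−0.33 ± 0.10). Complex V factors were called there in 0 of 6 by edgeR, with 0 at an unadjusted p under 0.05 and 0 in DESeq2. The medians of these 4 lists were −0.13, −0.029, 0.11 and 0.095. In C3 the counts of higher factors were 0, 1, 1 and 0 in these lists and 0 were lower. In C6, where 46.7% of all genes were called, 0 were higher and 2 lower for complex II, 2 and 2 for complex III (BCS1L and UQCC2 lower), 7 and 5 for complex IV and 1 and 0 for complex V. Among the complex IV factors SURF1, COA1, COA8 and HIGD1A were higher in C6 and SCO1, COA4 and COA7 lower, and for complex V TMEM70 was higher (0.26 ± 0.095, adjusted p = 0.032). COX19 and COA1 lie on chromosome 7 with ATP5MF, and UQCC1 and FASTKD5 on chromosome 20 with ATP5F1E. The neighbours of these factors were not examined.

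Complex I, which is not among the members, was set beside them through a list made by gene name. Of the 45 genes on it, 23 were higher and 2 lower in the mean comparison (median 0.23). In C3 the counts were 28 and 0 (0.27) and in C6 17 and 3 (0.18). Of all genes 16.6% were higher and 16.3% lower in the mean comparison, 12.4% and 11.9% in C3, and 23.8% and 22.8% in C6. The 49 members gave 29 and 2, 30 and 0, and 27 and 8 in the same order. By name the list also holds NDUFA4, whose product is a complex IV subunit, and its relative NDUFA4L2, which are not complex I genes. NDUFA4, also on chromosome 7, was called higher in C3 (0.32 ± 0.095) and C6 (0.77 ± 0.095), and NDUFA4L2 in C6 (0.54 ± 0.19). The 7 mitochondrially encoded genes of complex I gave 3 higher in C3 and 1 in C6 (medians 0.20 and 0.11). The 6 of complexes III to V gave 3 and 6 (medians 0.17 and 0.36). The difference between these groups was not tested.

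**Figure D5:**
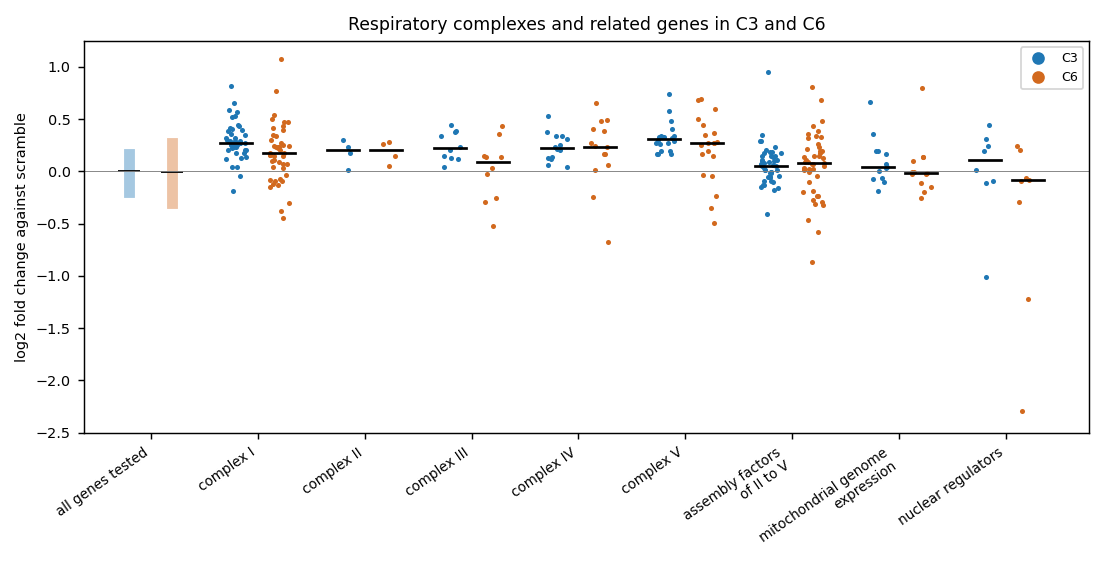
Log2 fold changes against scramble in C3 (blue) and C6 (orange); points are genes and black bars medians, and for all genes tested the coloured bar spans the middle of the distribution from the lower to the upper quartile (UQCRHL is left out of complex III). Complexes II to V and the complex I list, made by gene name, have medians above 0 in both lines, and the related lists are spread around 0.

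Several members share sequence with other genes, and the sources used here do not say how reads were assigned to genes. In GENCODE v29 the exons of ATP5F1E overlap those of TUBB1 on the opposite strand by 1188 bases, those of ATP5ME overlap MYL5 by 579, SDHC overlaps CFAP126 by 774, ATP5PF overlaps GABPA by 413 and UQCRQ overlaps GDF9 by 306. ATP5MF shares 177 bases on the same strand with the read-through ATP5MF-PTCD1. Pseudogenes named after a member exist for 28 of 43 nuclear members, 105 in all, with 17 for COX6C and 7 for ATP5MC1. Values of these members are less certain to that extent.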

How the data were processed

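Poly(A) RNA of 6 SW620 libraries was sequenced as stranded paired ends, per the labels' protocols. The deposited table holds whole-number counts per gene, not scaled between libraries. The submitters' processing notes name Trimmomatic 0.38, HISAT2 2.1.0, StringTie 2.1.3b, DESeq2 and hg38. The sources used here do not say how reads were assigned to genes or with which strand setting, and the counts may be sums of StringTie estimates.

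Here edgeR 4.0.16 (R 4.3.3; TMM scaling, filterByExpr, robust quasi-likelihood) was fitted to all 6 libraries as 3 groups with 3 residual degrees of freedom, on 13299 genes. The Benjamini-Hochberg adjustment ran over all of these, with a threshold of 0.05. Contrasts were the mean of C3 and C6 against scramble, each line against scramble, and C6 against C3. Depth limits precision through the counts given in the report. The running median of 51 genes around a gene, by RefSeq position (13238 tested genes had one), was entered as an offset to remove neighbour shifts. Alternatives were other scalings, filters, DESeq2 1.42.0, a replicate block, other groupings and leaving out each library. The fitting step was tested on simulated data. Any member could be named; the others come from lists of assembly factors, carriers and regulators, up to 4 each by smallest p in the mean comparison; NRF1, ESRRA, YY1, PPRC1 and the genes named as called in 1 line were added after their values were seen. Members and lists were chosen with earlier results of these data known.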

Additional observations from a re-analysis of the deposited data

Results flagged for a closer look

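C6 and C3 differed, by the direct test over all genes (edgeR, adjusted p under 0.05), in 24 of 49 members, while 49.2% of all genes differed. Depth of knockdown, hairpin and other differences between the lines cannot be told apart here. Log2 differences below are C6 minus C3. In complex II, SDHD had 0.24. In complex III, CYTB had 0.31, UQCRC2 −0.66, UQCR11 −0.59, UQCRB −0.50, UQCRC1 −0.40 and CYC1 −0.34. In complex IV, COX7C had 0.52, COX2 0.29, COX3 0.25, COX4I1 −0.89, COX7B −0.77, COX6C −0.33 and COX5B −0.24.

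In complex V, ATP5MF had 0.34, ATP5MD 0.31 and ATP5MC2 0.18. On the other side ATP5ME had −0.97, ATP5F1D −0.68, ATP5MC3 −0.56, ATP5F1A −0.34, ATP5PB −0.31, ATP5IF1 −0.21 and ATP5F1B −0.15. The differences of 13 of the 24 were called in every setting tried, ATP5ME, COX7B, UQCRC2 and UQCR11 among them, while those of COX4I1, COX7C, ATP5MF, ATP5MC3, SDHD, ATP5MD, ATP5F1B and ATP5IF1 were lost once neighbour shifts were removed.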

How the results depend on the processing

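The numbers of higher members were 22 to 30 in the mean comparison, 27 to 31 in C3 and 18 to 27 in C6 over the scalings, filters, DESeq2, the replicate block and removal of neighbour shifts. With the knockdown libraries as 1 group, 0 were higher and 0 lower in the mean comparison. Leaving out 1 library gave 13 to 29 higher and 0 to 2 lower in the mean, 17 to 31 higher in C3, 16 to 26 higher and 4 to 8 lower in C6, and 5 to 9 higher in C6 against C3. No member was called lower in C3 in any of these. The lower count in C6 was 4 without C6 replicate 2 and 5 without scramble replicate 1, and in the mean 0 without scramble replicate 1 and 1 without C3 replicate 2. Upper-quartile scaling moved the share of all calls that were higher from 50.5% to 37.2% in the mean, from 51.2% to 41.7% in C3 and from 51.1% to 41.6% in C6, and the median of the members in the mean to 0.16.

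Removing neighbour shifts left 0 lower in the mean and 2 lower in C6. It turned the sign in the mean for COX4I1 (0.089), in C6 for SDHA (−0.10), UQCR11 (0.039), COX4I1 (0.025), ATP5MC3 (0.25) and ATP5ME (0.27), and in C6 against C3 for ATP5MF (−0.13) and ATP5MC3 (0.026). The cause of the turns is the offset itself, which takes away the neighbours' median.

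Replicate numbers did not pair the libraries (correlations of same-numbered deviations −0.047, 0.064 and 0.025). With the replicate block 28 members were higher and 2 lower in the mean comparison, 28 and 0 in C3, 24 and 8 in C6 and 8 and 15 in C6 against C3; it lost 2, 2, 3 and 1 calls.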

Other observations

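The read-through row ATP5MF-PTCD1, left out by the rule, held 117 and 79 counts in the scramble libraries, 296 and 614 for C3 and 180 and 29 for C6. Its exons share 177 bases with ATP5MF, and its libraries of 1 line differed more than those of ATP5MF did. ATP5MGL, a copy of ATP5MG, held 3 counts in scramble replicate 1, 1 in C6 replicate 1 and 0 elsewhere. The assembly factor FMC1 was at 6.87 and 2.64 CPM under the scramble hairpin, 8.29 and 10.1 for C3 and 7.78 and 8.84 for C6, so the scramble libraries stood far apart.

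Summed by complex over nuclear members alone, complex III stood at 839 and 762 CPM under the scramble hairpin, 941 and 993 for C3 and 802 and 758 for C6. Complex IV stood at 1091 and 997, 1181 and 1334, and 1198 and 1116 CPM, and complex V at 2692 and 2466, 3119 and 3286, and 3046 and 2852 CPM in the same order. C3 lay above scramble without overlap in all 3 complexes, while C6 did so in complexes IV and V and overlapped scramble in complex III.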
